A study of Homo sapiens with 10 samples.

Results

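The genes described here are 32 genes of glucose use: glucose and lactate transporters, enzymes of glycolysis and of the pentose phosphate pathway, and the pyruvate dehydrogenase complex with 2 of its kinases. They were taken from a fixed list of symbols, and all 32 were matched among the 55889 Ensembl gene IDs measured. The source was KOPT-K1, a line of human T-cell leukaemia (T-ALL) grown in RPMI medium with fetal bovine serum, from which total RNA and footprints, the RNA pieces shielded by ribosomes, were sequenced. Cells received silvestrol, a plant-derived inhibitor of the translation initiation helicase eIF4A, at 25 nM for 45 minutes, or DMSO, the solvent control. Each treatment had 2 footprint libraries and 3 total RNA libraries. No replicate was said to come from a separate culture, so the spread between libraries may be technical, and all values come from 1 cell line.

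Glycolysis splits glucose into pyruvate and yields ATP, while the pentose phosphate pathway branches off at glucose-6-phosphate and yields NADPH and ribose for nucleotides. Pyruvate is reduced to lactate by lactate dehydrogenase and exported, or enters mitochondria, where pyruvate dehydrogenase turns it into acetyl-CoA. Proliferating T cells and T-cell leukaemias are known for high glucose uptake and lactate output. An eIF4A inhibitor acts on initiation, so the question for these genes is whether their mRNAs carry fewer footprints relative to other mRNAs, with or without a change in the mRNA itself. No member passed the test in RNA, footprints or translational efficiency, and RPE and SLC2A1 had the lowest translational efficiency in silvestrol relative to DMSO.

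Values are RPKM (reads per kilobase of gene, scaled to the library's total) as deposited. RPKM is per length, which allows RNA levels to be compared between genes, except where genes share sequence or overlap. Most low values of genes with 1 annotated transcript matched whole reads when full exon length was assumed. Footprints come from coding sequence, so footprint levels and ratios also depend on the coding share of a gene. The scaling to the library makes every change relative, and a loss of translation shared by all mRNAs would leave no trace. Estimated depth was 1.66 to 2.38 M reads in footprint libraries and, roughly, 127 to 216 M in RNA libraries. The median SD between libraries of 1 group was 0.19 (silvestrol) and 0.18 (DMSO) on the log2 scale in footprints, and 0.047 (silvestrol) and 0.039 (DMSO) in RNA. A footprint value of these genes is therefore far less precise than an RNA value. All 10 T-cell markers examined had RNA above 1 RPKM in DMSO, and the 4 erythroid, 5 myeloid and 4 stromal markers were all under 1. Of 6 B-cell markers, 4 were under 1 RPKM, and CD79A and CD79B were above it.

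In DMSO-treated cells the mRNAs of the pathway spanned more than 3 orders of magnitude. GAPDH, the glyceraldehyde-3-phosphate dehydrogenase, was the most abundant member mRNA at 2343 ± 20.8 RPKM in DMSO (SD, n = 3). It was followed by the enolase ENO1 (857 ± 8.19 RPKM) and by LDHB, the lactate dehydrogenase subunit that predominates in heart (500.3 ± 9.71 RPKM). The triose-phosphate isomerase TPI1 (222.7 ± 3.51 RPKM), the phosphoglycerate kinase PGK1 (216.7 ± 1.53 RPKM) and LDHA, the lactate dehydrogenase subunit that predominates in muscle (214 ± 2.08 RPKM), came next. The neighbours PGK1 and LDHA differed by less than their summed SDs. At the low end were ALDOC (2.07 ± 0.17 RPKM), the brain aldolase, and SLC16A3 (0.558 ± 0.012 RPKM), a lactate exporter also called MCT4.

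**Figure D1:**
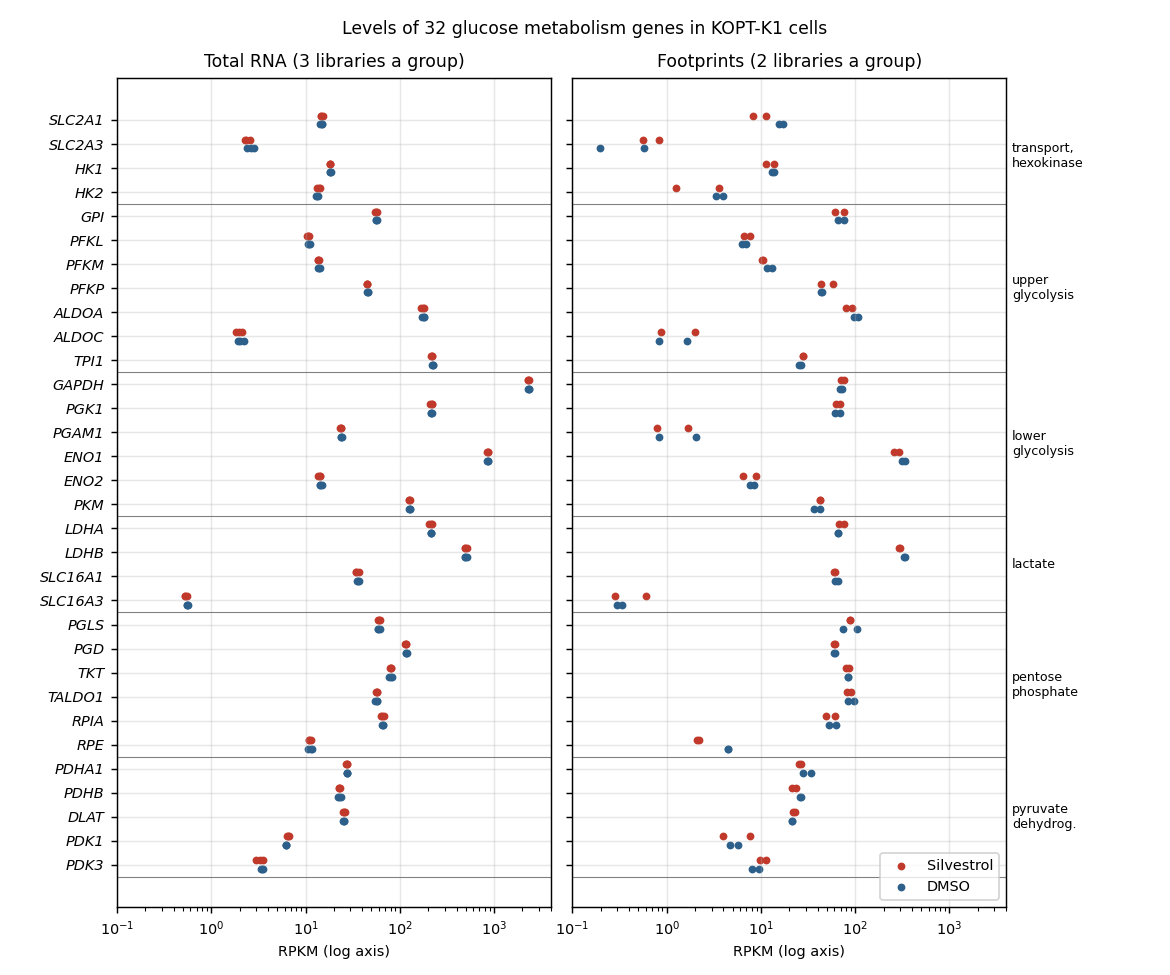
RPKM of the 32 genes in total RNA (left, 3 libraries a group) and in footprints (right, 2 libraries a group), on log axes, with silvestrol points above DMSO points and genes grouped by role. GAPDH has the most RNA but only 71.4 and 76.8 RPKM of footprints in silvestrol and 71.9 and 69.6 RPKM in DMSO, while LDHB and ENO1 lead the footprints.

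Among transporters and hexokinases, which trap glucose in the cell, SLC2A1 (the glucose transporter GLUT1) had 14.7 ± 0.55 RNA RPKM in DMSO, against 2.61 ± 0.22 for SLC2A3 (GLUT3). HK1, the widely expressed hexokinase, had 18.3 ± 0.31 RNA RPKM and HK2, the inducible one, 13.3 ± 0.42. Of the 3 phosphofructokinase subunits, which set the committed step of glycolysis, PFKP was highest (45.7 ± 0.76 RNA RPKM), PFKM lower (13.9 ± 0.35) and PFKL lowest (10.8 ± 0.30), and the libraries of these 3 did not overlap. SLC16A1 (MCT1), which moves lactate across the membrane, had 35.9 ± 0.95 RNA RPKM. Among isoforms typical of other tissues, HK3, PKLR, LDHC, PGK2 and PDHA2 had RNA means at or near 0 in DMSO (0.0096 RPKM or less). PGAM2 (4.25 RPKM), HKDC1 (2.14 RPKM), GAPDHS (1.35 RPKM) and ENO3 were above 1 RPKM, and these names were chosen after their values were seen. In PGAM2 100% and in GAPDHS 60.8% of exon length lies opposite another gene, against 3.36% in HKDC1 and 2.59% in ENO3. With the use of strand not stated, the levels of PGAM2 and GAPDHS are uncertain. The levels of the opposite genes were not examined, so a small overlap does not make the levels of HKDC1 and ENO3 certain. ENO3, the muscle enolase, had by far the most, with RNA of 95.4 ± 2.17 RPKM in silvestrol and 95.3 ± 2.86 RPKM in DMSO (SD, n = 3 each).

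The order in footprints was not the order in RNA. LDHB (333.5 ± 9.19 RPKM) and ENO1 (329 ± 17.0 RPKM) led in DMSO footprints (n = 2 each) and did not differ beyond their spread. ALDOA (102 ± 7.14 RPKM), TALDO1 (89.9 ± 9.33) and PGLS (89.8 ± 21.5) followed, the last 2 being pentose phosphate enzymes. GAPDH ranked 8 of 32, with 70.8 ± 1.63 RPKM. Rescaled to coding length, a description added after the data were seen, ENO1 (1333 ± 68.8) was above LDHB (993 ± 27.4), GPI ranked 3 and TKT 4, ALDOA 6, PGLS 7, TALDO1 9 and GAPDH 12. The ratio of footprint to RNA level in DMSO was 0.0302 for GAPDH, 0.0598 for the phosphoglycerate mutase PGAM1 and 0.117 for TPI1. The median over 9017 tested protein-coding genes was 0.724, with 5% of genes under 0.247. The median of the 30 tested members was 0.701, and the highest value was 2.54 for PDK3, a pyruvate dehydrogenase kinase.

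The genes with very low ratios share coding sequence with pseudogenes, copies of an mRNA scattered over the genome. A footprint is about 28 bases long, so each coding sequence of GENCODE 29 (build GRCh38) was split into all its windows of 28 bases, and windows also present in an annotated transcript of another gene were counted. For GAPDH 70.5% of windows occurred in a pseudogene transcript, for PGAM1 100%, for TPI1 68.9% and for LDHA 53.0%. SLC2A1 and 16 other tested members had none. The windows below show what such sharing means for a read. The first 3 are the window found in the most other genes (11 for GAPDH, 9 for PGAM1 and 3 for TPI1), and the last 2 are found in no other gene. All letters are capitals because every base of a window is shared or not as a whole. Positions count from 1 at the first base of the start codon, namely 353 to 380 of 1005 in GAPDH on chromosome 12, 599 to 626 of 762 in PGAM1 on chromosome 10 and 191 to 218 of 747 in TPI1 on chromosome 12. The unshared windows are 16 to 43 of 1005 in GAPDH and 1 to 28 of 1869 in TKT on chromosome 3.
GAPDH shared window: GGGTCATCATCTCTGCCCCCTCTGCTGA
PGAM1 shared window: TCTCTGAAGAGGCTATCATGGAGCTGAA
TPI1 shared window: CGCAGAACTGCTACAAAGTGACTAATGG
GAPDH unshared window: GTCGGAGTCAACGGATTTGGTCGTATTG
TKT unshared window: ATGGAGAGCTACCACAAGCCTGACCAGC

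The 17 members with no such window had a median DMSO ratio of 1.05 (range 0.558 to 2.54). The 5 members with a share above 0 but under 20% (ALDOA, ENO1, LDHB, RPIA and RPE) had a median of 0.577, and the 4 between 20% and 50% (HK2, PGK1, PKM and PGD) a median of 0.304. The 4 members at 50% or more (TPI1, GAPDH, PGAM1 and LDHA) had a median of 0.0883, with a range from 0.0302 to 0.307. Across the 30 members Spearman's rho between this share and the ratio was -0.84, or -0.78 with footprints rescaled to coding length, where GAPDH (0.0896), PGAM1 (0.202) and TPI1 (0.422) again had the lowest ratios. Between the coding share of a gene and the ratio as deposited it was -0.043. Across 8966 tested genes with a coding transcript, rho with the ratio was -0.29 for the share in pseudogenes and -0.014 for the coding share. The median ratios of the same 4 classes of pseudogene share were 0.777, 0.690, 0.407 and 0.170 (6505, 1607, 545 and 309 genes). These points share libraries and are genes, not replicates, so no p is given. No source used here states how reads with several matches were counted, and the part of shared sequence in these ratios was not tested.

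The gene IDs of some pseudogenes carried footprints of their own. Summed over 64 GAPDH pseudogenes, the footprint level was 89.0 RPKM in silvestrol and 80.8 RPKM in DMSO, and the RNA level was 14.7 RPKM in silvestrol and 15.5 RPKM in DMSO. As deposited, the summed footprint level was higher than that of GAPDH itself (74.1 RPKM in silvestrol and 70.8 RPKM in DMSO). The summed RNA level was far lower. Rescaled to coding length, GAPDH footprints were at 219.8 in silvestrol and 209.9 in DMSO, above these sums. The pseudogenes were not rescaled, so which level is higher depends on the length used. For 4 TPI1 pseudogenes the sums were 19.9 RPKM (silvestrol) and 20.1 RPKM (DMSO) in footprints, and 3.13 RPKM (silvestrol) and 3.23 RPKM (DMSO) in RNA. As levels, the sums in footprints were lower for other members with copies. The 13 PGAM1 pseudogenes summed to 1.17 footprint RPKM in silvestrol and 1.23 RPKM in DMSO. PGAM1 itself was at 1.24 RPKM in silvestrol and 1.44 RPKM in DMSO, so its copies were not low relative to it. The 6 LDHA pseudogenes summed to 6.96 RPKM in silvestrol and 8.72 RPKM in DMSO, well under LDHA itself. The 4 ENO1 pseudogenes were at 0 in all 4 footprint libraries. With most or part of their coding sequence shared, GAPDH, PGAM1, TPI1, LDHA, HK2, PGK1, PKM and PGD are uncertain in footprints as levels. Of coding windows of 50 bases, 100% (PGAM1), 50.6% (TPI1), 26.4% (GAPDH) and 25.3% (LDHA) occur in another gene. For HK2, PGK1, PKM and PGD this was 2.07% to 18.2%. The RNA levels of these genes, and so their ratios, are therefore not free of this either. ALDOA and LDHB are uncertain for another reason, since 42.3% and 33.4% of their exon length overlaps another gene on the same strand.

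**Figure D2:**
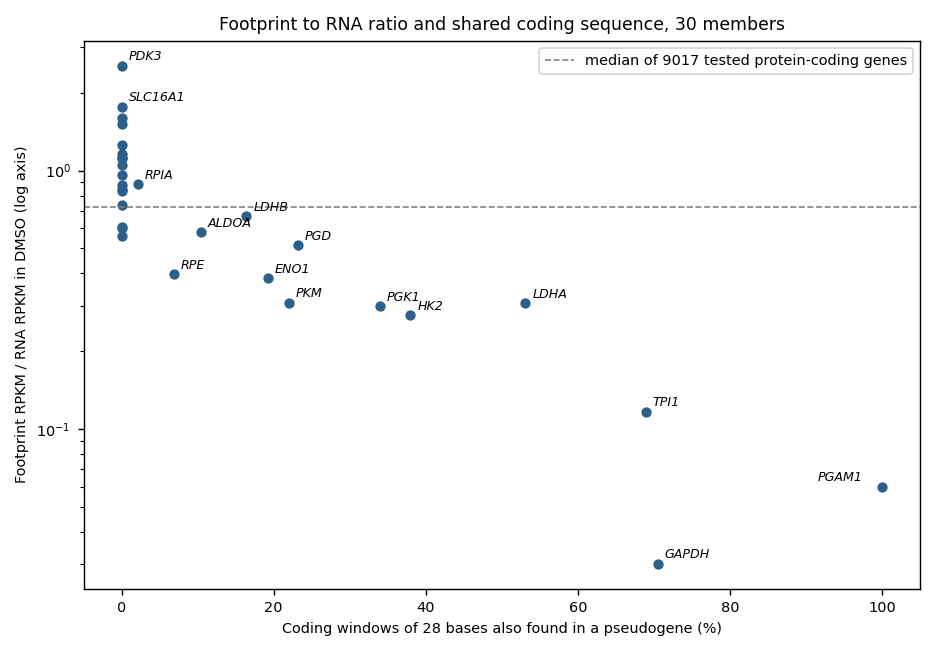
Footprint over RNA RPKM in DMSO (log axis) against the share of 28-base coding windows also found in a pseudogene transcript, for the 30 tested members, with the median of 9017 tested protein-coding genes as a dashed line. TPI1, PGAM1 and GAPDH lie at the lower right with ratios of 0.117, 0.0598 and 0.0302, while the 17 members with no window shared with a pseudogene lie between 0.558 and 2.54.

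Silvestrol against DMSO was tested in RNA, in footprints and in translational efficiency, which is the footprint change relative to the RNA change. Changes are differences of log2(RPKM + 0.5), in which the added 0.5 shrinks the changes of weakly expressed genes. The tests covered 10297 genes with mean values of at least 1 RPKM in both assays and 30 of the 32 members. SLC2A3 did not reach this in footprints, and SLC16A3 reached it in neither assay. SLC2A3 footprints were 0.820 and 0.559 RPKM in silvestrol against 0.573 and 0.195 RPKM in DMSO, and SLC16A3 footprints 0.281 and 0.601 RPKM in silvestrol against 0.294 and 0.335 RPKM in DMSO.

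Member mRNA levels differed little between treatments. By limma with Benjamini-Hochberg adjustment over all tested genes, 0 of 30 members were called in RNA at an adjusted p under 0.05, where 0.282% of all tested genes were called. No member had an unadjusted p under 0.05 either, against 9.23% of all tested genes. Changes of the members ran from -0.06 for PDK3 to 0.07 for PDK1 on the log2 scale, and the 95% intervals of all 30 lay between -0.20 and 0.15. The median member change was -0.012 and that of all tested genes 0.0028. Of the 30 members, 23 lay below the median of all tested genes, but 17 did with quantile normalization and 18 to 24 with 1 RNA library left out. For upper glycolysis (GPI, the 3 phosphofructokinases, ALDOA, ALDOC and TPI1) this was 7 of 7, and 6 or 7 under each of these alternatives. For lower glycolysis (GAPDH, PGK1, PGAM1, ENO1, ENO2 and PKM) it was 6 of 6, against 4 with quantile normalization and 5 or 6 with 1 library left out. In bulk RNA scaled to the library, neither RNA per cell nor a shift between kinds of cell can be read from these changes.

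PDK1, a kinase that switches pyruvate dehydrogenase off, was the only member whose RNA libraries did not overlap. Its RNA was 6.69, 6.40 and 6.56 RPKM in silvestrol and 6.23, 6.15 and 6.22 RPKM in DMSO. All 3 silvestrol libraries were higher. The change was 0.07 on the log2 scale with an SE of 0.035 (limma adjusted p = 0.576), and 8.97% of all tested genes were likewise higher without overlap. PDK1 footprints were 3.99 and 7.65 RPKM in silvestrol against 5.77 and 4.75 RPKM in DMSO, so the 2 silvestrol libraries lay on either side of both DMSO libraries.

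The 32 members together made up 1.553%, 1.556% and 1.555% of the summed RNA RPKM of all genes in silvestrol, against 1.580%, 1.585% and 1.576% in DMSO. The mean share was 1.555 ± 0.0018% in silvestrol and 1.580 ± 0.0042% in DMSO (SD, n = 3 each; exact permutation test, two-sided, p = 0.1, the smallest p that 3 against 3 allow). GAPDH held a large part of both. Without it the shares were 0.881 ± 0.0067% in silvestrol and 0.893 ± 0.0026% in DMSO, and the difference was -0.012 in place of -0.026 percentage points. In footprints the members' share was 0.223% and 0.209% in silvestrol against 0.263% and 0.253% in DMSO, with means of 0.216 ± 0.0096% in silvestrol and 0.258 ± 0.0071% in DMSO (SD, n = 2 each; exact permutation p = 0.333, the smallest p that 2 against 2 allow). Taken over the tested genes alone, the footprint share was 0.457% and 0.467% in silvestrol against 0.516% and 0.474% in DMSO, with means of 0.462 ± 0.0073% in silvestrol and 0.495 ± 0.030% in DMSO. These groups still did not overlap, but 1 DMSO library lay close to silvestrol.

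In footprints limma called 0 of 30 members, where 0.0486% of all tested genes were called (2 higher and 3 lower, or 5 and 3 with TMM factors or quantile normalization). In translational efficiency it called 0 of 30, where 0.107% of all tested genes were called (2 higher and 9 lower, or 3 and 6 with TMM factors and 4 and 9 with quantile normalization). SLC2A1 and RPE had an unadjusted p under 0.05 in both of these comparisons, and no other member did, while 6.98% of all tested genes did in footprints and 7.38% in translational efficiency. Footprint libraries did not overlap for 9 members lower in silvestrol (SLC2A1, PFKM, ALDOA, ENO1, LDHB, SLC16A1, RPE, PDHA1 and PDHB), and 25.2% of all tested genes were lower in that way. They did not overlap for 5 members higher in silvestrol (TPI1, PKM, LDHA, DLAT and PDK3), where the share of all tested genes was 13.1%. The median footprint change of the members was -0.06 and that of all genes -0.07. For translational efficiency the medians were -0.04 and -0.08.

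**Figure D3:**
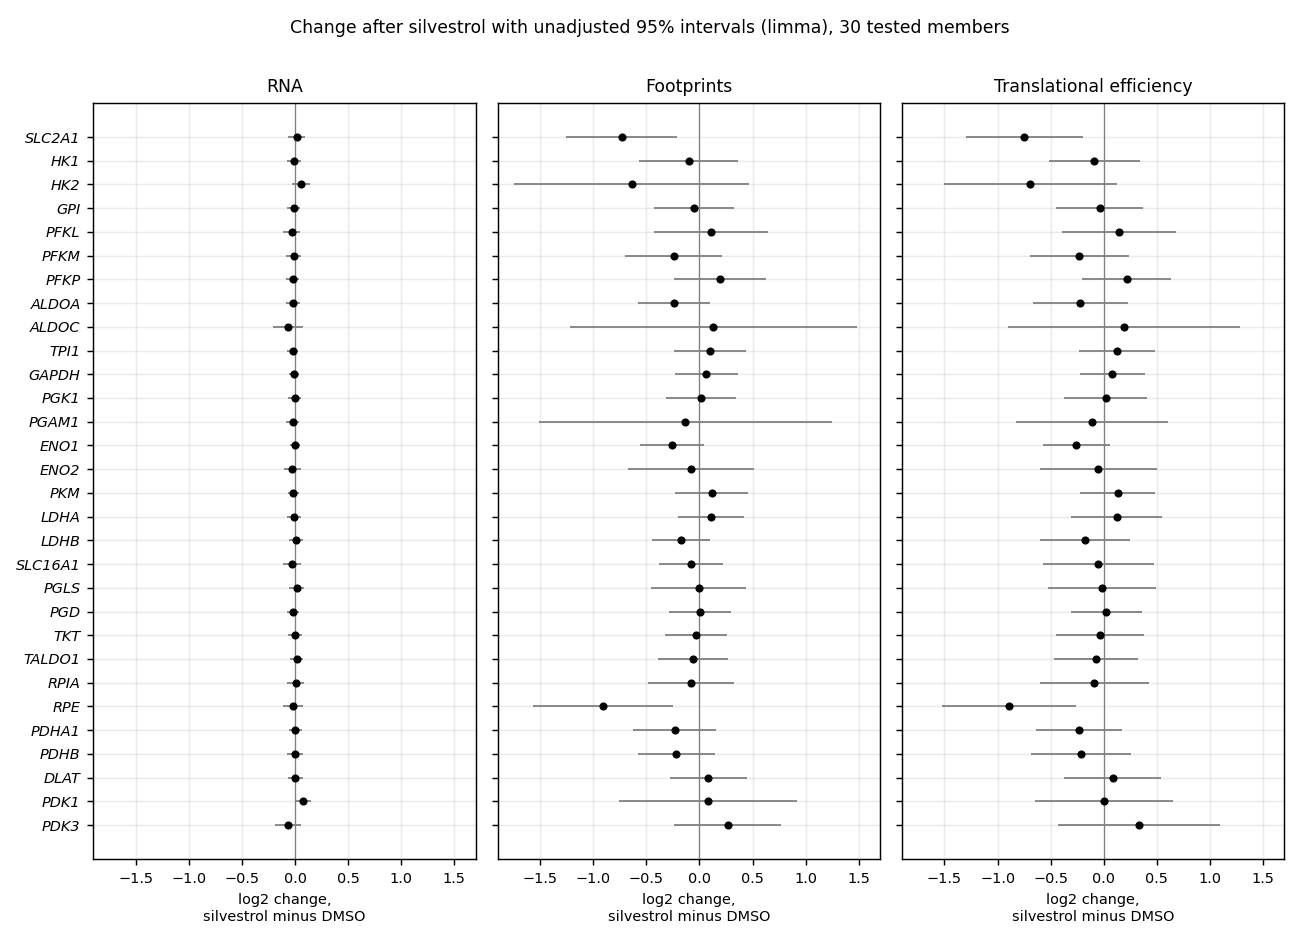
Log2 change, silvestrol minus DMSO, with unadjusted 95% intervals from limma for the 30 tested members in RNA, footprints and translational efficiency. RNA intervals are narrow and lie around 0, and in the other panels SLC2A1 and RPE are the members whose intervals do not reach 0.

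SLC2A1 (ENSG00000117394.13, chromosome 1), the main glucose importer of proliferating cells, had lower footprint values in both silvestrol libraries. Its footprints were 8.32 and 11.2 RPKM in silvestrol against 15.7 and 17.1 RPKM in DMSO. Its RNA was 15.3, 14.7 and 14.7 RPKM in silvestrol against 15.1, 15 and 14.1 RPKM in DMSO, and these groups overlapped. The footprint change was -0.73 (SE 0.21, limma adjusted p = 0.625) and the change in translational efficiency -0.75 (SE 0.25, 95% interval -1.30 to -0.20, adjusted p = 0.482). The values rest on an estimated 126 footprint reads per library on average. Translational efficiency of SLC2A1 was called lower only when both assays were given 1 shared spread (limma adjusted p = 0.0352), a fit that called 5.29% of all tested genes. Without the lower silvestrol footprint library the change was -0.55, and over 20 alternatives it ran from -0.95 to -0.55, with adjusted p from 0.0352 to 0.915. Of its 1476 coding bases no window of 28 was shared with another gene.

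RPE (ENSG00000197713.9, chromosome 2), the ribulose-phosphate epimerase of the pentose phosphate pathway, showed the largest difference among members in both comparisons, and was singled out after its values were seen. Its footprints were 2.22 and 2.08 RPKM in silvestrol against 4.50 and 4.45 RPKM in DMSO. Its RNA was 10.8, 11.5 and 11 RPKM in silvestrol against 11.8, 10.7 and 11.3 RPKM in DMSO. Footprint groups did not overlap and RNA groups did. The footprint change was -0.91 (SE 0.27, limma adjusted p = 0.646), and the change in translational efficiency was -0.89 (SE 0.29, 95% interval -1.52 to -0.26, adjusted p = 0.454). These rest on an estimated 18.6 and 14.9 footprint reads in silvestrol and 36.0 and 26.1 in DMSO. With 1 shared spread the adjusted p was 0.00557, and over 19 alternatives the change ran from -1.0 to -0.78 with adjusted p from 0.00557 to 0.853. Of its coding windows 53.1% occur in another gene, 6.85% in a pseudogene, and 23.8% of its exon length lies opposite another gene, so its level is uncertain.

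HK1 and HK2 catalyse the same step and differed in spread. HK1 footprints were 11.4 and 13.7 RPKM in silvestrol against 13.0 and 13.9 RPKM in DMSO, and its RNA 18.1, 18.1 and 18.2 RPKM in silvestrol against 18.0, 18.2 and 18.6 RPKM in DMSO. The HK1 groups overlapped in both assays (translational efficiency change -0.09, SE 0.20). HK2 footprints were 1.25 and 3.57 RPKM in silvestrol against 3.35 and 3.97 RPKM in DMSO, and its RNA 13.2, 13.8 and 14.4 RPKM in silvestrol against 13.6, 12.8 and 13.4 RPKM in DMSO. The translational efficiency change of HK2 was -0.69 (SE 0.38, limma adjusted p = 0.732) and rested on 1 silvestrol footprint library, since it was -0.08 without that library and -1.30 without the other one.

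**Figure D4:**
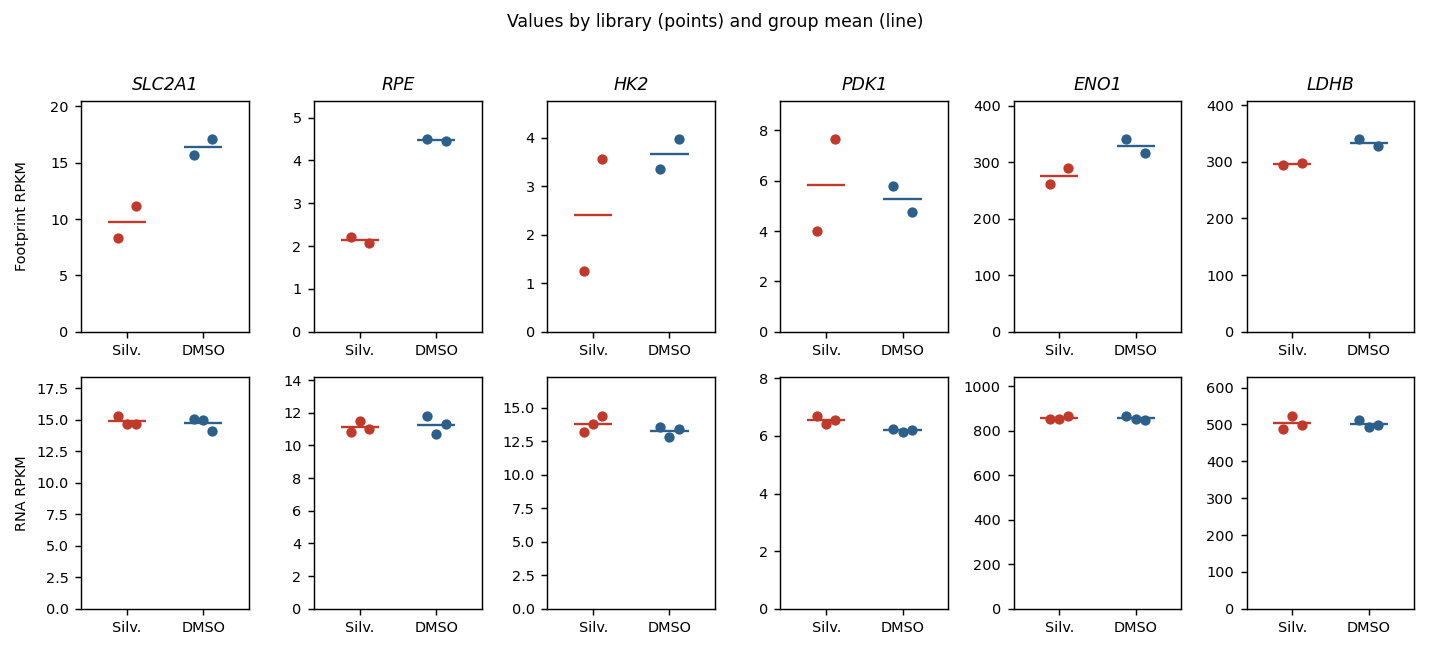
Footprint RPKM (top) and RNA RPKM (bottom) of SLC2A1, RPE, HK2, PDK1, ENO1 and LDHB in each library (points) with group means (lines), silvestrol left of DMSO, axes from 0. Footprints of SLC2A1, RPE, ENO1 and LDHB do not overlap between treatments, those of HK2 and PDK1 do, and RNA overlaps in all but PDK1.

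Among the phosphofructokinase subunits, PFKM had lower footprint values in silvestrol and the other 2 did not. PFKM footprints were 10.2 and 10.4 RPKM in silvestrol against 13.0 and 11.6 RPKM in DMSO, and PFKM RNA was 13.7, 13.7 and 14.0 RPKM in silvestrol against 13.9, 13.6 and 14.3 RPKM in DMSO. PFKP footprints were 43.1 and 58.8 RPKM in silvestrol against 44.6 and 43.5 RPKM in DMSO, with RNA of 45.4, 44.9 and 44.5 RPKM in silvestrol against 46.2, 46.0 and 44.8 RPKM in DMSO. PFKL footprints were 6.60 and 7.65 RPKM in silvestrol against 6.23 and 6.88 RPKM in DMSO, with RNA of 10.9, 10.3 and 10.5 RPKM in silvestrol against 10.5, 11.1 and 10.8 RPKM in DMSO. Only PFKM had footprint groups that did not overlap. None of the 3 was called, with translational efficiency changes of -0.23 (SE 0.21) for PFKM, 0.21 (SE 0.19) for PFKP and 0.14 (SE 0.25) for PFKL, and the differences between subunits were not tested. The other enzymes of upper glycolysis, GPI, ALDOA, ALDOC and TPI1, had translational efficiency changes between -0.22 (ALDOA) and 0.19 (ALDOC).

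In lower glycolysis, where ATP is made, GAPDH footprints were 71.4 and 76.8 RPKM in silvestrol against 71.9 and 69.6 RPKM in DMSO. GAPDH RNA was 2320, 2300 and 2340 RPKM in silvestrol against 2350, 2360 and 2320 RPKM in DMSO. Both sets overlapped, and the translational efficiency change was 0.08 (SE 0.14, 95% interval -0.23 to 0.39). PKM, the pyruvate kinase of proliferating and most adult tissues, had footprints of 42.7 and 42.5 RPKM in silvestrol against 42.4 and 36.4 RPKM in DMSO. Its RNA was 126, 125 and 128 RPKM in silvestrol against 128, 129 and 126 RPKM in DMSO. ENO1 had footprints of 261 and 289 RPKM in silvestrol against 341 and 317 RPKM in DMSO, with a mean of 3309.6 estimated reads per library. Its RNA was 854, 852 and 867 RPKM in silvestrol against 866, 855 and 850 RPKM in DMSO. At that depth its translational efficiency change of -0.26 had an SE of 0.14 and an adjusted p of 0.739 by limma. PGAM1 was at the limit of depth, with 0.798 and 1.68 footprint RPKM in silvestrol against 0.837 and 2.05 RPKM in DMSO, an estimated 6.85 reads per library, and no difference was detectable there.

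The lactate dehydrogenase subunits stood on opposite sides of 0 in footprints. LDHA footprints were 66.7 and 75.7 RPKM in silvestrol against 65.9 and 65.7 RPKM in DMSO, while LDHB footprints were 294 and 298 RPKM in silvestrol against 340 and 327 RPKM in DMSO. Neither pair of groups overlapped, yet the changes were 0.11 (SE 0.13) and -0.17 (SE 0.11), and neither was called. LDHA RNA was 205, 221 and 213 RPKM in silvestrol against 216, 212 and 215 RPKM in DMSO, and LDHB RNA was 488, 523 and 498 RPKM in silvestrol against 511, 492 and 498 RPKM in DMSO. The difference between the subunits was not tested. SLC16A1 had footprints of 59.3 and 60.8 RPKM in silvestrol against 65.7 and 61.2 RPKM in DMSO, with a translational efficiency change of -0.05 (SE 0.24).

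In the pentose phosphate pathway RPE stood apart from the other 5 enzymes. TKT, the transketolase of the non-oxidative branch, had footprints of 79.0 and 85.6 RPKM in silvestrol against 83.4 and 84.8 RPKM in DMSO. Its RNA was 80.9, 78.5 and 81.7 RPKM in silvestrol against 81.6, 81.8 and 77.8 RPKM in DMSO. PGLS and PGD of the oxidative branch and TKT, TALDO1 and RPIA of the non-oxidative branch had translational efficiency changes from -0.09 (RPIA) to 0.02 (PGD), with SEs of 0.15 to 0.24. Whether RPE differed from these enzymes was not tested.

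In the pyruvate dehydrogenase complex PDHA1, a subunit of its first enzyme, had footprints of 26.5 and 25.4 RPKM in silvestrol against 33.8 and 27.7 RPKM in DMSO. Its RNA was 26.9, 27.8 and 27.6 RPKM in silvestrol against 27.5, 27.3 and 27.4 RPKM in DMSO. PDHB, the partner subunit, had a translational efficiency change of -0.22 (SE 0.22), close to that of PDHA1 (-0.24, SE 0.19), and DLAT, the acetyltransferase core, had 0.08 (SE 0.21). PDK3 had 11.4 and 9.85 footprint RPKM in silvestrol against 9.50 and 8.04 RPKM in DMSO. Its RNA was only 3.28 ± 0.27 RPKM in silvestrol and 3.45 ± 0.081 RPKM in DMSO (SD, n = 3 each), and its translational efficiency change of 0.33 (SE 0.35) was not called.

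Of 71 further genes of the pathway (other transporters, tissue isoforms, control enzymes and the response to glucose and low oxygen), 70 were matched and 35 tested. By limma none was called in the 3 comparisons, with 3 at an unadjusted p under 0.05 in RNA, 0 in footprints and 2 in translational efficiency. Of all tested genes, 9.23%, 6.98% and 7.38% had such a p. Their median translational efficiency change was -0.12. PDP1, the phosphatase that switches pyruvate dehydrogenase back on, is named because it was the only one called with 1 shared spread (log2 change -0.53, SE 0.10, limma adjusted p = 0.0256). That fit called 5.29% of all tested genes, and with weights per assay PDP1 was not called (limma adjusted p = 0.671). Its footprints were 6.91 and 6.32 RPKM in silvestrol against 9.53 and 9.02 RPKM in DMSO, and its RNA 9.42, 9.86 and 9.28 RPKM in silvestrol against 8.92, 8.97 and 9.25 RPKM in DMSO. The footprint and RNA groups both did not overlap, in opposite directions. Of all tested genes, 25.2% were lower without overlap in footprints and 8.97% were higher without overlap in RNA.

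The series is named for RNA G-quadruplexes, folds of stacked guanines, so the 5′ UTRs of GENCODE 29 were searched for them by letters alone. The pattern of 4 runs GG with gaps of 1 to 7 bases occurred in 16 of 31 members with a 5′ UTR (51.6%), against 67.1% of 8810 tested genes. A gap may hold G, so a longer run such as GGGGG counts as GG, a gap of G and GG. A repeat of 4 GGC or 4 CGG units in a row occurred in 0 of 31 members, against 4.71% of tested genes. Median 5′ UTR length was 148 bases in members and 180 bases in tested genes, and median GC content 68.9% and 66.3%. SLC2A1 (5′ UTR of 525 bases) and HK2 (600 bases) hold the pattern, and RPE (97 bases) does not. Among tested members RPE had the lowest translational efficiency change (-0.89), followed by SLC2A1 (-0.75) and HK2 (-0.69). The HK2 change rested on 1 silvestrol footprint library. The sites of SLC2A1 and HK2 were chosen for these low changes, and have runs of G in capitals. Positions, counted from the 5′ end, are 126 to 141 and 193 to 211 in SLC2A1. In HK2 on chromosome 2 they are 43 to 54 and 113 to 129. A match is a description, and no folding or eIF4A dependence follows from it.
SLC2A1 site A: GGcagtGGttaGGGGG
SLC2A1 site B: GGacaGGctGGGccccaGG
HK2 site A: GGcGGcGGGcGG
HK2 site B: GGaGGcccgcGGGccGG

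Promoters from RefSeq, 250 bases before to 50 after the start, were matched for 30 members and searched on both strands. The E-box CACGTG, which MYC and other factors can bind, occurred in 6 of 30 members (ALDOA, ALDOC, GAPDH, HK2, LDHA and PDHB; 20.0%) and in 8.78% of 27305 genes. ACGTG, the core of the hypoxia response element, which also lies inside CACGTG, occurred in 17 (56.7%, against 24.9%), and GCGTG in 19 (63.3%, against 40.6%). The GC box GGGCGG occurred in 28 (93.3%, against 48.3%) and TATAAA in 4 (13.3%, against 14.0%). The members have more promoters per gene (55 for 30 members, against 35116 for 27305 genes), which favours a match. With each promoter counted once, a description added after the data were seen, CACGTG was in 10.9% of member promoters and 7.26% of all, ACGTG in 38.2% and 21.4%, GCGTG in 41.8% and 36.5%, GGGCGG in 69.1% and 45.0%, and TATAAA in 7.27% and 11.5%. The compared genes also include non-coding ones, and the part of that was not tested. No binding was measured here.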

How the data were processed

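Footprints and total RNA of KOPT-K1 cells were measured in 10 libraries. The authors deposited 1 file of RPKM values per library, per the file headers. The submitters' processing notes name STAR and hg19. No source used here states the counting tool, the annotation, the use of strand or the handling of reads with several matches, which can shift genes with copies. Members and lists were chosen with earlier results of these data known.

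IDs were named from a name table (49395) and GENCODE 29 (267), and 6227 stayed unnamed. Depth was estimated from the step of low values, under 10.5 reads, in genes with 1 annotated transcript. At the best matching depth 90.3% to 93.0% of these values lay within 0.05 of a whole read. Genes with several transcripts were not checked in this way, so depth and read estimates are rough and no count model was used. With limma 3.58.1 in R 4.3.3 (lmFit, eBayes with trend and robust), log2(RPKM + 0.5) was fitted for 10297 genes with means of at least 1 RPKM in both assays, on 6 RNA libraries, on 4 footprint libraries, and as the interaction of assay and treatment over all 10 with weights per assay. Tests were two-sided and adjusted over all tested genes. The fits were also run on simulated data with an assumed spread, from which no power of the real tests is taken. Fully described were called members and a set list of 13 genes of key steps. RPE, ENO1, PGAM1, PDK3, SLC16A1, the 2 untested members, ENO3 and PDP1 were added after their values were seen.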

Additional observations from a re-analysis of the deposited data

How the results depend on the processing

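In RNA and footprints 0 members were called under every alternative run (other pseudocounts, filters, scalings, prior settings, the replicate block and each library left out). In translational efficiency 0 were called under all but 1 alternative: with 1 shared spread for both assays and no weights, 2 members (SLC2A1 and RPE) and 545 genes in all were called, against 11 genes in all with weights per assay. The cause was not tested. No direction of a called value turned.

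Over all tested genes, RNA calls numbered 29, against 0 with no filter, 57 with the replicate block, 4 with eBayes without trend and robust, and 0 to 35 with 1 library left out (0 without DMSO library 1 or 3, 1 without silvestrol library 3, 5 without DMSO library 2). Footprint calls numbered 5, against 2 with a pseudocount of 0.1, a minimum of 5 RPKM or no filter, 8 with quantile normalization or TMM factors, 1 with the replicate block or without trend and robust, and 0 without any 1 library. Translational efficiency calls numbered 11, against 6 without trend and robust and 8 to 44 with 1 library left out (44 and 31 without silvestrol footprint library 1 or 2, 21 without DMSO footprint library 1). The summed RNA share differed by -0.012 percentage points without GAPDH, against -0.026 with it.

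Same-numbered libraries deviated together at r = 0.042, -0.327 and 0.15 in RNA, and differently numbered ones at -0.319 to 0.303. In footprints r was -0.033, and with 2 libraries a group differently numbered ones must give the same value with the other sign. No pairing by number was seen, but whether libraries were prepared in pairs cannot be told from this. With the replicate block 0 members were called in any comparison, and 14 genes in all in translational efficiency. Footprint depth limits the low members: PGAM1, ALDOC, RPE and HK2 rest on an estimated 6.85, 8.25, 23.9 and 37.0 reads per library.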
